A study of Mus musculus with 9 samples.

Results

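The AP-1 transcription factor genes Fos, Fosb, Fosl1, Fosl2, Jun, Junb and Jund were followed in mouse brain after transient arterial occlusion, together with Atf3, Maff and Ier3. The 10 genes were chosen by name, with earlier results of these data known, and each had 1 row among the 55385 gene rows of the deposited table. All 10 passed the filter on low values, which asked 3 or more of the 9 libraries for 0.5 or more FPKM (fragments scaled to transcript length and library size). Fosl1 passed it through occluded libraries alone, and of the sham libraries of Atf3 only replicate 3 reached 0.5, so both genes entered the test through their levels after occlusion.

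AP-1 is a dimer of basic leucine zipper proteins, made of 1 Jun protein and 1 Fos protein, of a pair of Jun proteins, or of a Jun protein with an ATF or Maf relative. Several of its genes are immediate early genes, which are transcribed within minutes of synaptic activity, growth factor signals or stress, before any new protein is made. In the brain Fos, Fosb and Junb are widely used as markers of recent neuronal activity, while Jun and Atf3 are known for their induction in injured neurons.

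Total RNA depleted of ribosomal RNA was sequenced from the hemisphere of C57BL/6 males, 8 to 10 weeks old, all operated on under sevoflurane, with 3 libraries for each of 3 groups. Sham mice had the neck surgery without closure of the artery. In tMCAO mice (transient middle cerebral artery occlusion, a filament model of ischemic stroke) the right middle cerebral artery was closed for 90 min and then reperfused. Celastrol mice were occluded likewise, and at the start of reperfusion an intraperitoneal dose of 4.5 mg/kg celastrol, a triterpenoid from plants, was given. The sources used here do not say how long after reperfusion the tissue was taken, nor how many mice gave each library. None of the groups analysed had celastrol without occlusion.

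The libraries held 60392960 to 75158625 estimated counts. All 10 neuronal markers listed were detected, with summed levels of 7384 to 10205 CPM (counts scaled to the same library total) over the 9 libraries. On the first principal component of all genes tested, which held 31.0% of the variance, the other occluded libraries lay between 17.0 and 58.1 and the sham libraries between -58.7 and -25.8. The library of celastrol replicate 2 lay next to the sham libraries, at -23.2, and results that rest on it are given with and without it. Whether that library belongs with its label cannot be settled from the files, which limits what every celastrol value stands for. Since whole tissue was measured, fewer cells of a type and less RNA per cell cannot be told apart.

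Promoter sequences are shown because Fos is a textbook target of CREB, a factor activated by calcium and cyclic AMP that binds the cyclic AMP response element (CRE). RefSeq start-site windows on GRCm38.p6, from 250 bases before to 50 bases after the start, were found for 9 of the 10 genes, with 3 windows for Maff and 1 for each of the others. Capitals mark the CRE, TGACGTCA, or its core TGACG on either strand, which is also part of the full CRE. The windows that held the core in Fos, Fosb, Junb and Atf3 and the 1 window that held the full CRE, in Maff, read as follows, 5′ to 3′ on the strand of the gene.
Fos (chr12:85473640-85473939, plus strand): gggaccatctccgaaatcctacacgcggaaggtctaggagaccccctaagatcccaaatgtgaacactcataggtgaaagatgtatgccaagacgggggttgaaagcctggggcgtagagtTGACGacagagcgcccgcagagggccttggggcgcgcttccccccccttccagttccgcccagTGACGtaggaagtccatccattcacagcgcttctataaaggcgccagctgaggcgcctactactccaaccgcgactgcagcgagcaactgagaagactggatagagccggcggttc
Fosb (chr7:19309996-19310295, minus strand): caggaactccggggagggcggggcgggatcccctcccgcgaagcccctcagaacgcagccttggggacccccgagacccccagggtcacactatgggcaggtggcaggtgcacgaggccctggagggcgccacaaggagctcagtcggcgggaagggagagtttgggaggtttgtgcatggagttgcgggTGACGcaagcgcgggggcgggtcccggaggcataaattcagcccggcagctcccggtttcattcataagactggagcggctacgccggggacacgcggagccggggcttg
Junb (chr8:84978699-84978998, minus strand): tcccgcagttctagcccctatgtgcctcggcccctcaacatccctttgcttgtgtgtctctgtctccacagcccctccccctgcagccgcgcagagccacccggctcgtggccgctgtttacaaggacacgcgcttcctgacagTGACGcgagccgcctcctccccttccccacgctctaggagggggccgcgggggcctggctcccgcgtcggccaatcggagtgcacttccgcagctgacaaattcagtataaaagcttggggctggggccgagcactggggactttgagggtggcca
Atf3 (chr1:191183284-191183583, minus strand): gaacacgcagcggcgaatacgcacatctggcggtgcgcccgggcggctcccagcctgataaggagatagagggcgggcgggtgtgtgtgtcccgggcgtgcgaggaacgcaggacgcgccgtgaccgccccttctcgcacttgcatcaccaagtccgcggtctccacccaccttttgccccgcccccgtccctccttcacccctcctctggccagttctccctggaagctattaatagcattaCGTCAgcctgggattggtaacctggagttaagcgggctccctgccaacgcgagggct
Maff (chr15:79347270-79347569, plus strand): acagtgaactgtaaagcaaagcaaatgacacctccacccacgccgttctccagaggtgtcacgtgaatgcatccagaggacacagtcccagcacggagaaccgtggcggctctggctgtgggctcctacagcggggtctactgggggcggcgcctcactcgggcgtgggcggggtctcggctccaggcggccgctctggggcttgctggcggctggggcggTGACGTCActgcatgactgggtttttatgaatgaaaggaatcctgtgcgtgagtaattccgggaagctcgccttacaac

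In Fos the core began 129 and 66 bases before the start, in Fosb 60 bases and in Junb 106 bases before it. In Atf3 it lay on the other strand, 7 bases before the start, and the full CRE of Maff began 29 bases before the start used. A further Maff window held the core 122 bases before its own start. The core was in at least 1 window of 5 of the 9 genes, against 20.8% of all 32851 mouse windows, and the full CRE in 1 gene, against 1.79%. The counts are per gene and the shares per window, and Maff has several windows, so they are not directly comparable. The 7-base form of the AP-1 site, TGANTCA, was in 0 of the 9 genes' windows and in 7.81% of all windows. The CArG box, bound by serum response factor, was in 0 of them and in 1.63% of all. Longer forms of the AP-1 site were not searched, so TGACATCA in the window of Jun was not counted. The Jund window, chr8:70697489-70697788, ended before the start of Jund in the deposited table, 70698949. A match is only a description of these letters, and windows of this length leave out more distant sites.

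Per unit of transcript length, Jund was the most abundant of the 10 genes in sham, at 35.0 FPKM ± 1.84 (SD, n = 3). Junb followed at 17.3 FPKM ± 8.55, Jun at 13.5 FPKM ± 2.41 and Fos at 11.1 FPKM ± 9.41, and these 3 neighbours overlapped in their ranges. Fosl2 stood at 4.93 FPKM ± 2.11, Ier3 at 4.80 FPKM ± 1.24 and Fosb at 2.63 FPKM ± 1.70, again with overlapping ranges. Maff (0.627 FPKM ± 0.394), Atf3 (0.392 FPKM ± 0.192) and Fosl1 (0.0797 FPKM ± 0.0306) were the scarcest. The range of Fosl1 ended below that of every other gene, while those of Maff and Atf3 overlapped. In tMCAO the order opened with Jund (34.6 FPKM ± 3.21), Jun (28.7 FPKM ± 4.19), Junb (15.8 FPKM ± 4.09) and Fos (14.9 FPKM ± 9.58). Ier3 (13.7 FPKM ± 5.70), Atf3 (7.58 FPKM ± 1.898) and Maff (4.42 FPKM ± 2.99) then stood above Fosl2 (3.37 FPKM ± 0.178) and Fosb (1.905 FPKM ± 0.931) by their means, and Fosl1 (1.38 FPKM ± 0.529) was again last. In celastrol Jund (36.4 FPKM ± 7.36) led and Fosl1 (0.565 FPKM ± 0.506) was last, and Fos (18.5 FPKM ± 21.0) had an SD above its mean.

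**Figure D1:**
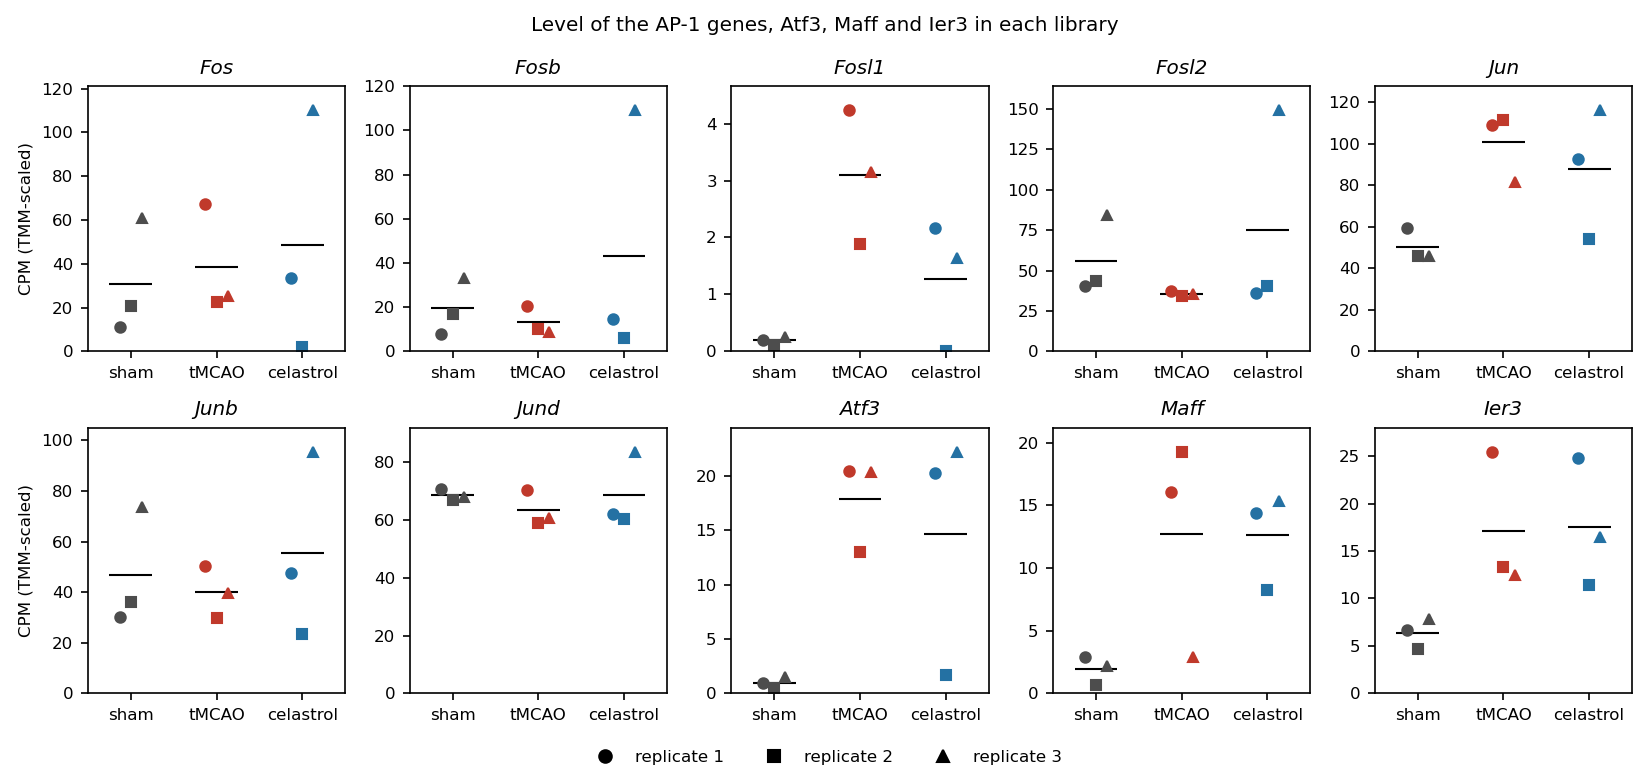
Level of each gene in each library in TMM-scaled CPM (vertical axes from 0, 1 panel per gene), with the libraries of each group as points by replicate and the group mean as a line. Atf3 lies between 0.541 and 1.52 CPM in sham and between 12.95 and 20.4 CPM in tMCAO, and celastrol replicate 2 is the lowest of its group in 9 of the 10 genes.

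The effect of occlusion and reperfusion on these genes was read from the tMCAO and sham libraries. Atf3, Fosl1, Maff, Ier3 and Jun had the largest log2 fold changes, from 1.0 for Jun to 4.17 for Atf3, while those of Fos, Fosb, Junb, Jund and Fosl2 lay between -0.65 and 0.32. None of the 10 passed an adjusted p of 0.05 in edgeR's quasi-likelihood test, and neither did any other gene (0.0% of the 16982 tested). At an unadjusted p under 0.05, 5 of the 10 genes were higher, against 8.56% of all genes tested, and 0 were lower, against 6.36%. DESeq2 on the same counts called the same 5 genes higher at an adjusted p under 0.05, against 3.28% of the genes it tested. In 4 genes every tMCAO library was higher than every sham library, against 12.4% of all genes, and in 1 gene, Fosl2, every one was lower, against 11.1%. Each of these counts of higher genes includes Atf3 and Fosl1, which entered the test through occluded libraries. Nothing is therefore read from those counts against the shares.

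Atf3 (mm10 chr1:191170296-191218039, minus strand) encodes a stress-induced member of the ATF and CREB family that represses or activates depending on its partner. Its levels were 0.921, 0.541 and 1.52 CPM in sham replicates 1 to 3, 20.4, 12.95 and 20.3 CPM in tMCAO, and 20.2, 1.66 and 22.2 CPM in celastrol. Every tMCAO library lay above every sham library, and celastrol replicate 2 alone stood near the sham range. Against sham, the log2 fold change in tMCAO was 4.17 ± 0.86 (SE), with 3 of 3 tMCAO libraries higher and an adjusted p of 0.125 (unadjusted 0.000953) in edgeR's quasi-likelihood test. DESeq2 gave an adjusted p of 1.95e-06. Without celastrol replicate 2, which is no part of this contrast but enters the shared estimate of spread, edgeR gave an adjusted p of 0.0152 with a log2 fold change of 4.17 ± 0.39, and with only the sham and tMCAO libraries in the fit it gave 0.0374.

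Fosl1 (chr19:5447547-5455946, plus strand) encodes FRA-1, a Fos protein without the strong activation domain of Fos. It was almost absent from sham, with 15, 7 and 15 estimated counts (0.209, 0.118 and 0.259 CPM). The tMCAO libraries held 310, 136 and 204 counts (4.24, 1.88 and 3.16 CPM), and the celastrol libraries 156, 0 and 125 (2.16, 0 and 1.65 CPM). All 3 tMCAO libraries lay above all sham libraries, and in celastrol replicate 2 a count of 0 allows up to 3 counts, or 0.0446 CPM. The log2 fold change in tMCAO was 3.97 ± 1.24, with an adjusted p of 0.222 in edgeR's quasi-likelihood test (unadjusted 0.0113) and 0.0190 in DESeq2. Without celastrol replicate 2 the edgeR adjusted p was 0.0252, against 0.477% of all genes called higher there and 2 of the 10 genes, Atf3 and Fosl1. Since both were tested only through their levels in occluded libraries, nothing is read from that count against the share. With only the groups compared in the fit the edgeR adjusted p of Fosl1 was 0.0484. The same 2 genes were called, against 0.141% of all genes, and the same limit holds for this count. Fosl1 overlaps Ccdc85b, a gene on the other strand, over 2767 bases, and strand use in the counting is not stated, so its level is uncertain. Ccdc85b ran at 3.13, 12.8 and 45.6 CPM in sham, 74.1, 40.1 and 54.3 CPM in tMCAO and 77.7, 59.4 and 50.4 CPM in celastrol. Whether its reads entered the level of Fosl1 was not tested.

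Jun (chr4:95049034-95052222, minus strand) encodes c-Jun, the Jun protein phosphorylated by the JNK kinases. It stood at 59.3, 45.9 and 45.9 CPM in sham, 109, 111 and 81.7 CPM in tMCAO, and 93.0, 54.3 and 116 CPM in celastrol. The tMCAO libraries lay above the sham libraries with no overlap, and celastrol replicate 2 lay inside the sham range. The log2 fold change in tMCAO was 1.0 ± 0.26, with an adjusted p of 0.180 in edgeR's quasi-likelihood test and 0.0161 in DESeq2.

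Junb and Jund completed the Jun family. Junb (chr8:84974484-84978718, minus strand), an immediate early gene, stood at 30.3, 36.2 and 73.7 CPM in sham, 50.4, 29.7 and 39.8 CPM in tMCAO, and 47.6, 23.6 and 95.4 CPM in celastrol. Its groups overlapped throughout, and its log2 fold change in tMCAO was -0.22 ± 0.50 (adjusted p = 0.869, edgeR quasi-likelihood test). Jund (chr8:70698949-70700616, plus strand), the Jun gene with steady expression in most tissues, lay between 58.9 and 83.5 CPM in all 9 libraries, with a log2 fold change of -0.11 ± 0.14 (adjusted p = 0.745, edgeR). Junb overlaps Prdx2 over 351 bases, Jund overlaps Gm11175 over 919 bases and Jun overlaps Junos over 689 bases. Prdx2 held 7220 to 10284 estimated counts per library, Gm11175 at most 35 and Junos at most 92, so the level of Junb is the least certain of the 3.

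Fos (chr12:85473890-85477273, plus strand), the founding immediate early gene of the family, was spread as widely within groups as between them. Its levels were 11.3, 20.5 and 60.8 CPM in sham, 67.4, 22.7 and 25.3 CPM in tMCAO, and 33.3, 2.10 and 110.1 CPM in celastrol. The highest celastrol library held 52.5 times the level of the lowest, against 5.36 times in sham and 2.97 times in tMCAO. The log2 fold change in tMCAO was 0.32 ± 1.09, with an adjusted p of 0.920 in edgeR's quasi-likelihood test. Leaving out sham replicate 3 gave 1.27 ± 1.24 and leaving out tMCAO replicate 1 gave -0.36, so neither its direction nor its size can be given from these libraries.

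Fosb (chr7:19302696-19310051, minus strand), whose truncated product accumulates with repeated activity, stood at 8.04, 17.1 and 33.1 CPM in sham, 20.6, 10.2 and 8.63 CPM in tMCAO, and 14.5, 6.04 and 109 CPM in celastrol. Its groups overlapped, with a log2 fold change of -0.56 ± 0.95 in tMCAO (adjusted p = 0.823, edgeR quasi-likelihood test). Fosl2 (chr5:32135801-32157842, plus strand), which encodes FRA-2, stood at 40.4, 43.7 and 84.3 CPM in sham, 37.5, 34.1 and 35.7 CPM in tMCAO, and 36.4, 40.2 and 149 CPM in celastrol. Every tMCAO library lay below every sham library, but the log2 fold change of -0.65 ± 0.52 had an adjusted p of 0.594 (edgeR) and was -0.23 ± 0.55 without sham replicate 3.

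Maff (chr15:79346621-79359076, plus strand) encodes a small Maf protein, a zipper protein with no activation domain that pairs with NRF2 or with Fos proteins. It stood at 2.92, 0.659 and 2.16 CPM in sham, 16.1, 19.2 and 2.88 CPM in tMCAO, and 14.4, 8.23 and 15.3 CPM in celastrol. The third tMCAO library lay within the sham range, and celastrol replicate 2, at 8.23 CPM, lay well above that range. The log2 fold change in tMCAO was 2.73 ± 0.73, with an adjusted p of 0.187 in edgeR's quasi-likelihood test and 0.00278 in DESeq2. Ier3 (chr17:35821684-35822923, plus strand), a stress-inducible gene whose product is known for effects on cell survival and is no AP-1 protein, stood at 6.64, 4.63 and 7.82 CPM in sham, 25.4, 13.3 and 12.5 CPM in tMCAO, and 24.8, 11.4 and 16.4 CPM in celastrol. All 6 occluded libraries lay above all 3 sham libraries. Its log2 fold change in tMCAO was 1.42 ± 0.37, with an adjusted p of 0.180 in edgeR and 0.0107 in DESeq2.

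**Figure D2:**
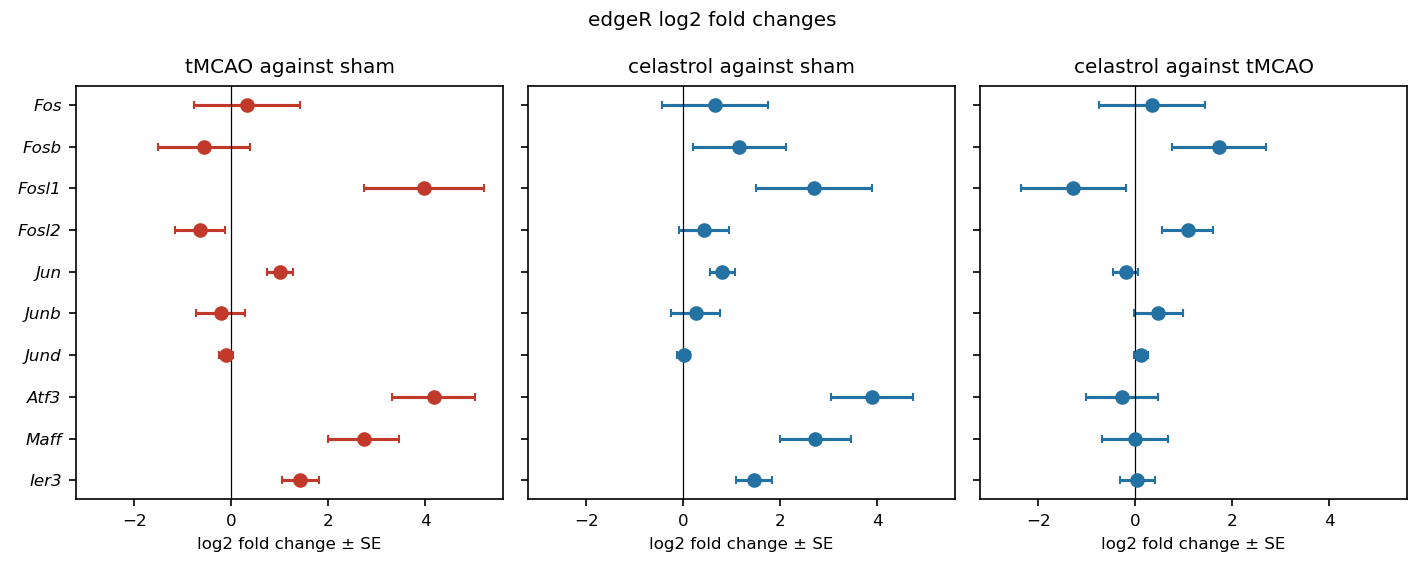
Log2 fold change (horizontal axis) of each gene in 3 comparisons, from edgeR, with the standard error as a bar. Against sham, Atf3 and Fosl1 lie farthest to the right (4.17 and 3.97 in tMCAO), and between celastrol and tMCAO the largest value is 1.72 ± 0.97, for Fosb.

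The celastrol and tMCAO groups, which differ in design by the drug at reperfusion, overlapped in all 10 genes. In edgeR's quasi-likelihood test 0 of 10 genes passed an adjusted p of 0.05, as did 0.0% of all genes. At an unadjusted p under 0.05 the count was also 0, against 4.11% of all genes (2.25% higher and 1.86% lower). In 0 genes was every celastrol library higher than every tMCAO library, against 3.73% of all genes, and in 0 was every one lower, against 4.13%. DESeq2 called 0 of the 10, against 0.106% of all genes, and without celastrol replicate 2 edgeR called 0, against 0.0%. Without that library 2 of the 10 had an unadjusted p under 0.05 in edgeR, as had 551 of the 16982 genes tested. There 9 of the 10 log2 fold changes were above 0, against 6 in the main fit. In the main fit the log2 fold changes were 1.72 ± 0.97 for Fosb, 1.07 ± 0.53 for Fosl2, 0.47 ± 0.50 for Junb and 0.33 ± 1.09 for Fos, with adjusted p-values from 0.976 to 0.990. Without celastrol replicate 3, the library highest in 8 of the 10 genes, they were -0.35 for Fosb, 0.09 for Fosl2, -0.17 for Junb and -1.12 for Fos. Atf3 differed by -0.28 ± 0.74, Maff by -0.01 ± 0.68, Ier3 by 0.04 ± 0.36, Jun by -0.20 ± 0.26 and Jund by 0.12 ± 0.14. Fosl1 differed by -1.28 ± 1.09, and by -0.70 ± 0.45 without celastrol replicate 2. With standard errors of this size, a log2 difference of 1 in Fos, Fosb, Atf3, Maff or Fosl1 was not detectable with 3 libraries a group. Fosl2, at 1.07 ± 0.53, did not pass either (edgeR adjusted p = 0.976). Whether a difference of 1 would pass in the remaining genes was not tested.

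Against sham, celastrol libraries shared the control libraries of the first comparison. In edgeR's quasi-likelihood test 0 of the 10 genes passed an adjusted p of 0.05, against 0.00589% of all genes, while 4 were higher at an unadjusted p under 0.05, against 5.69%, and 0 lower, against 2.81%. These were Atf3 (3.88 ± 0.85 on the log2 scale, adjusted p = 0.220), Ier3 (1.46 ± 0.37, adjusted p = 0.285), Maff (2.72 ± 0.73, adjusted p = 0.316) and Jun (0.80 ± 0.26, adjusted p = 0.412). In Atf3, Ier3 and Maff every celastrol library was higher than every sham library, which held for 7.89% of all genes, and DESeq2 called the same 3, against 1.93% of the genes it tested. Without celastrol replicate 2, edgeR called 2 genes, against 0.259% of all genes: Atf3 at 4.41 ± 0.41 (adjusted p = 0.0253) and Fosl1 at 3.27 ± 0.47 (adjusted p = 0.0492). Fosl1 had been 2.69 ± 1.20 (adjusted p = 0.591) with that library. Both genes entered the test through their levels in occluded libraries, and the library left out was singled out for lying next to sham. Nothing is therefore read from this count against the share, nor from the other counts of higher genes in this comparison, which include Atf3. Fos (0.65 ± 1.096), Fosb (1.16 ± 0.96), Fosl2 (0.42 ± 0.52), Junb (0.25 ± 0.50) and Jund (0.0023 ± 0.14) overlapped with sham, with adjusted p-values from 0.810 to 0.998 in edgeR.

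With both occluded groups set against sham, 0 of the 10 genes passed an adjusted p of 0.05 in edgeR's quasi-likelihood test, against 0.0118% of all genes. At an unadjusted p under 0.05, 5 genes were higher, against 8.0%. In Atf3 and Ier3 all 6 occluded libraries lay above all 3 sham libraries, against 4.2% of all genes. The log2 fold changes were 4.03 ± 0.82 for Atf3 (adjusted p = 0.120) and 1.44 ± 0.34 for Ier3 (adjusted p = 0.154). DESeq2 called 5 genes, Atf3, Fosl1, Jun, Maff and Ier3, against 3.51% of the genes it tested. Without celastrol replicate 2, edgeR called Atf3, Fosl1 and Jun, 3 of 10, against 1.01% of all genes, with adjusted p-values of 0.0118, 0.0224 and 0.0392. Nothing is read from this count either, since Atf3 and Fosl1 entered through occluded libraries and the library left out lay next to sham. The other counts of higher genes in this comparison include Atf3, and its limit holds for them too. The other 5 genes overlapped with sham, with log2 fold changes of 0.49 ± 0.97 for Fos, 0.30 ± 0.83 for Fosb, -0.11 ± 0.45 for Fosl2, 0.0127 ± 0.43 for Junb and -0.06 ± 0.12 for Jund.

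**Figure D3:**
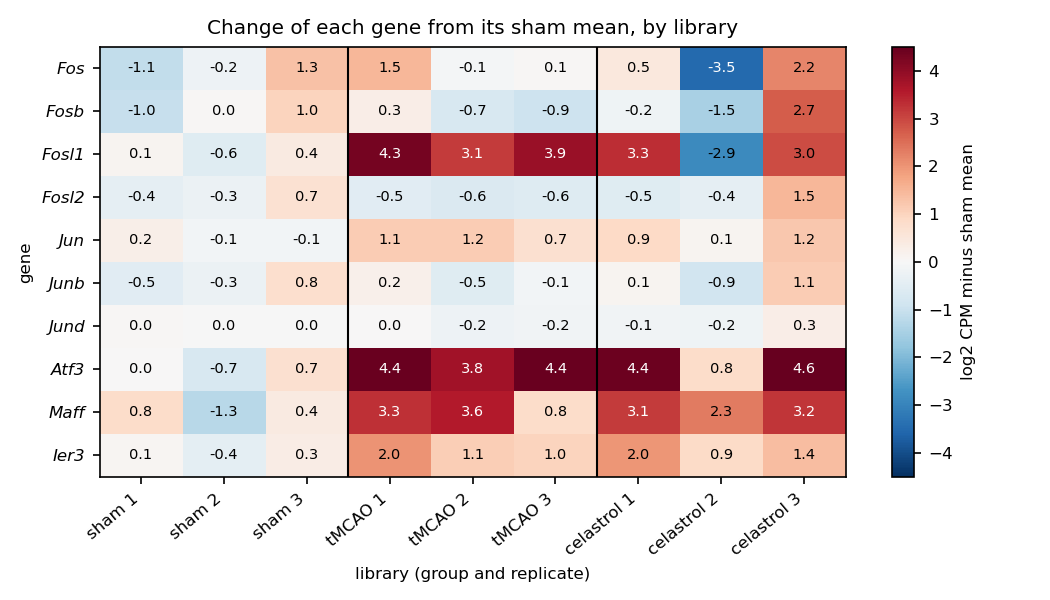
Log2 CPM of each gene (rows) minus its sham mean in each library (columns, by group and replicate), with the value printed in each cell and red above and blue below 0. In celastrol replicate 2 Atf3 is at 0.8 and Fos at -3.5, while the other occluded libraries hold Atf3 at 3.8 to 4.6.

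The make-up of each family is given as a share of summed FPKM, as a description with no test. Among the Fos genes, Fosl1 took 0.316% to 0.948% of the family in sham, 5.48% to 8.90% in tMCAO and up to 4.94% in celastrol, where replicate 2 had no count of it. Fos itself took 46.5% to 64.6% in sham and 61.4% to 75.6% in tMCAO, and in celastrol from 14.8% to 66.5%. The low end was celastrol replicate 2, where Fosl2 held 69.2% of a family sum of 5.01 FPKM. Among the Jun genes, Jun took 16.5% to 25.1% in sham, 32.3% to 42.0% in tMCAO and 26.8% to 33.5% in celastrol, so that neither occluded group overlapped with sham. Jund took 46.7% to 57.2% in sham, 42.4% to 45.9% in tMCAO and 39.1% to 57.0% in celastrol, and Junb 17.8% to 36.8%, 15.5% to 22.3% and 16.2% to 32.4%. The summed Jun family stood at 58.8 to 73.6 FPKM in sham and 74.0 to 88.7 FPKM in tMCAO, and at 53.0 to 114.0 FPKM in celastrol, which spans both.

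**Figure D4:**
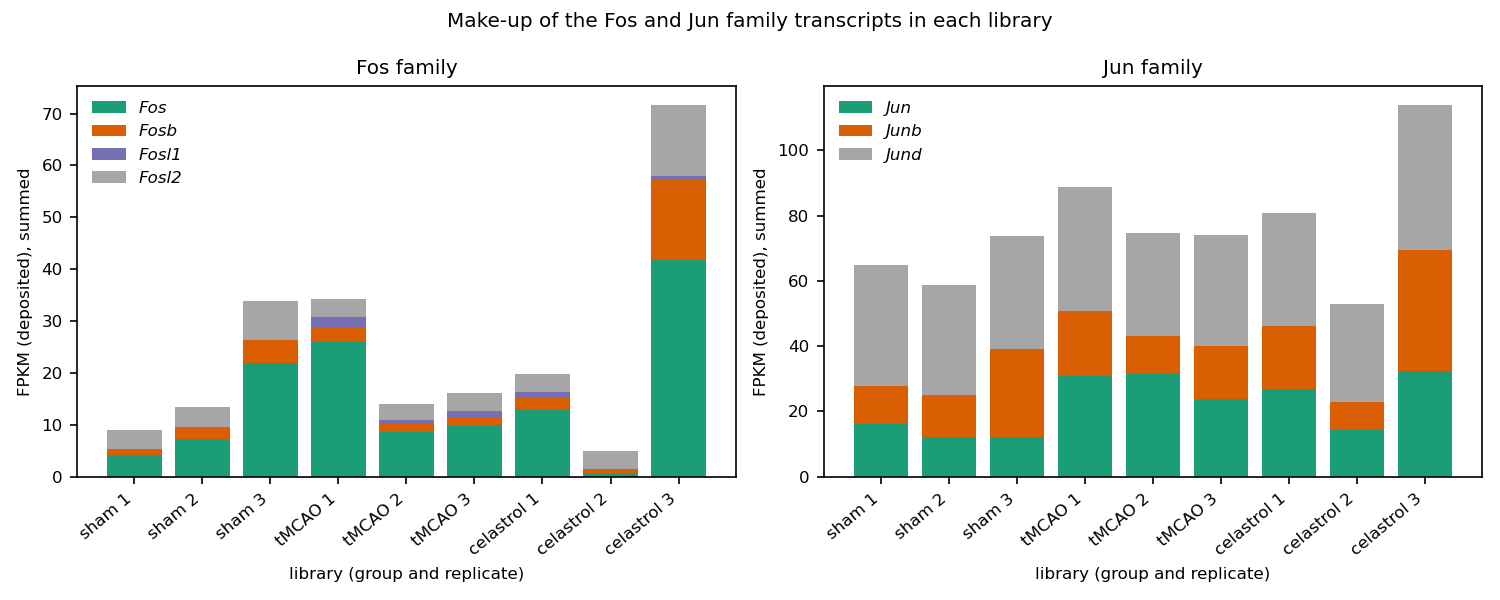
Deposited FPKM of the Fos genes and of the Jun genes (stacked bars, vertical axis from 0) in each library. Fosl1 is hardly visible in sham, Jun is the part of the Jun family that is larger in tMCAO, and the Fos family sum runs from 5.01 FPKM in celastrol replicate 2 to 71.7 FPKM in celastrol replicate 3.

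Single libraries carried much of the spread within groups. Sham replicate 3 was the highest sham library in 7 of the 10 genes, among them Fos, Fosb, Fosl2 and Junb, and celastrol replicate 3 was the highest of its group in 8. The other immediate early genes gave the same 2 libraries: the 26 listed summed to 855, 1167 and 2349 CPM of the library total in sham, 1039, 711 and 874 CPM in tMCAO, and 1055, 627 and 2218 CPM in celastrol. Egr1, a zinc finger factor of active neurons named here after its values were seen, stood at 108, 186 and 492 CPM in sham, 110, 73.0 and 90.7 CPM in tMCAO, and 97.0, 67.0 and 237 CPM in celastrol. Sham replicate 3 also had the highest sum of the 8 striatal neuron markers, 1169 CPM against 203 and 451 CPM in the other sham libraries, while celastrol replicate 3 had 192 CPM. The part of the sampled regions in the spread was not tested.

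None of the genes in the lists around AP-1 passed an adjusted p of 0.05 in edgeR's quasi-likelihood test, in any of the comparisons, so the counts that follow are at an unadjusted p under 0.05. The largest share was among the AP-1 target genes, which include proteases, their inhibitors and injury cytokines. Of 25 listed, 20 were tested, and 16 were higher in tMCAO than in sham and 0 lower (8.56% and 6.36% of all genes), with a median log2 fold change of 2.46 against 0.01 for all genes. In celastrol against sham 15 were higher and 0 lower (5.69% and 2.81% of all genes), with a median of 2.20. In celastrol against tMCAO 1 was higher and 1 lower (2.25% and 1.86% of all genes), with a median of -0.49. Several of these genes are near 0 in sham and could be tested only through the occluded libraries, so the count over the tested genes is a description. Timp1, an inhibitor of metalloproteases, stood at 0.768, 0.591 and 0.363 CPM in sham, 39.3, 6.74 and 23.4 CPM in tMCAO, and 37.8, 2.93 and 6.73 CPM in celastrol (log2 fold change in tMCAO 5.32 ± 1.09, edgeR adjusted p = 0.125). Cdkn1a, the cell cycle inhibitor p21, had a log2 fold change of 2.39 ± 0.42 (edgeR adjusted p = 0.0994). Between celastrol and tMCAO the 2 smallest p-values in each direction were those of Hbegf, an epidermal growth factor receptor ligand (-1.09 ± 0.38), Tnfrsf12a, the receptor of TWEAK (-1.07 ± 0.50), Ptgs2, cyclooxygenase-2 (1.17 ± 0.45), and Emp1 (1.53 ± 0.97), with an edgeR adjusted p of 0.976 for each. Emp1 stood at 45.75, 4.67 and 2.70 CPM in celastrol, so 1 library held most of its level.

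Of the genes for other zipper proteins, among them partners of AP-1 members, 17 of 20 were tested, with 5 higher and 1 lower in tMCAO than in sham (8.56% and 6.36% of all genes) and a median of 0.26. Cebpd, a C/EBP factor of the acute phase response, had a log2 fold change of 2.40 ± 0.39 (edgeR adjusted p = 0.0907), and Nfe2l2, which encodes the oxidative stress factor NRF2, of 0.84 ± 0.20 (0.143). Maf (-0.30 ± 0.12) and Mafg (-0.29 ± 0.13) had the smallest p-values among those that were lower. In celastrol against tMCAO 2 were higher and 1 lower (2.25% and 1.86% of all genes), and Jdp2, a repressor that pairs with Jun, differed by 1.0 ± 0.27 (edgeR adjusted p = 0.976). Its levels were 20.1, 29.8 and 30.2 CPM in tMCAO and 41.8, 77.5 and 40.8 CPM in celastrol, against 33.4, 36.2 and 38.5 CPM in sham. The groups did not overlap, and celastrol replicate 2 was the highest library of all. Jdp2 is named for its small p, and every celastrol library was above every tMCAO library in 3.73% of all genes tested. Maf (0.44 ± 0.12), Atf1 (-0.63 ± 0.26) and Atf4 (-0.43 ± 0.23) also had small unadjusted p-values there. In celastrol against sham 7 were higher and 0 lower (5.69% and 2.81% of all genes).

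Among the 26 kinases, phosphatases and activators upstream of AP-1, 1 was higher and 6 were lower in tMCAO than in sham (8.56% and 6.36% of all genes), with a median of -0.13. Map2k7, which encodes the JNK kinase MKK7, differed by -0.91 ± 0.26 and Dusp8, a phosphatase of JNK, by -0.37 ± 0.11, while Elk1, a partner of serum response factor, differed by 0.56 ± 0.18 and Dusp16 by 0.40 ± 0.21, with edgeR adjusted p-values from 0.196 to 0.405. Of the same genes, 1 was higher and 0 lower in celastrol against tMCAO (2.25% and 1.86% of all genes), and in celastrol against sham 1 was higher and 1 lower (5.69% and 2.81%). The 2 genes with the smallest p in each direction between celastrol and tMCAO were Map3k5 (0.44 ± 0.18), Dusp8 (0.21 ± 0.11), Map2k3 (-0.27 ± 0.26) and Map3k1 (-0.22 ± 0.25).

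The 26 other immediate early genes differed from sham in both directions in tMCAO, with 4 higher and 7 lower (8.56% and 6.36% of all genes) and a median of -0.32. Zfp36, which encodes tristetraprolin, a protein that destabilises cytokine messages, differed by 2.72 ± 0.45 (edgeR adjusted p = 0.0907), and Myc by 1.22 ± 0.31 (0.166). Nr4a1, an orphan nuclear receptor, differed by -2.04 ± 0.69, and Homer1, a scaffold of synapses, by -1.49 ± 0.46 (0.246 and 0.221). Nr4a1 stood at 44.0, 70.7 and 153.9 CPM in sham and 24.4, 15.7 and 25.4 CPM in tMCAO, groups that did not overlap, while Fos, Fosb and Junb overlapped. Every tMCAO library was below every sham library in 11.1% of all genes tested. In celastrol against tMCAO 3 were higher and 0 lower (2.25% and 1.86% of all genes), with Npas4, a factor specific to neuronal activity, at 2.46 ± 1.07 and Nr4a3 at 2.24 ± 0.95. Npas4 stood at 19.4, 4.89 and 126 CPM in celastrol, so 1 library held most of its level. Gadd45b (-0.79 ± 0.46) and Ier5l (-0.37 ± 0.27) had the smallest p among those lower there. In celastrol against sham 3 were higher and 0 lower (5.69% and 2.81% of all genes).

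Of 20 genes known from injured peripheral neurons, where Atf3 is induced, 17 were tested, with 5 higher and 0 lower in tMCAO than in sham (8.56% and 6.36% of all genes) and a median of 0.38. Tubb6, a tubulin, differed by 2.68 ± 0.54 (edgeR adjusted p = 0.124) and Lgals3, which encodes galectin-3 and is also made by myeloid cells, by 4.47 ± 0.95 (0.125). Gap43, a growth cone protein, differed by -0.60 ± 0.33 and Flrt3 by -0.28 ± 0.24. Between celastrol and tMCAO 0 were higher and 0 lower (2.25% and 1.86% of all genes), and in celastrol against sham 3 were higher and 1 lower (5.69% and 2.81%). The 2 genes with the smallest p in each direction between celastrol and tMCAO were Chac1 (0.65 ± 0.32), Flrt3 (0.14 ± 0.24), Gal (-3.43 ± 1.84) and Csrnp1 (-0.68 ± 0.48). Gal stood at 10.7, 1.05 and 0.433 CPM in tMCAO and 0, 0 and 1.11 CPM in celastrol, so 1 library held most of its level. At 0 to 0.277 CPM in sham, Gal could pass the filter only with occluded libraries, so the count over the tested genes is a description.

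Markers of other cell types also differed between sham and occluded libraries. The 12 markers of infiltrating myeloid cells summed, in CPM of the library total, to 10.9, 7.41 and 8.89 CPM in sham, 35.5, 22.7 and 64.6 CPM in tMCAO, and 56.2, 25.5 and 48.7 CPM in celastrol, and 4 of the 6 tested were higher in tMCAO at an unadjusted p under 0.05 in edgeR, against 8.56% of all genes. The untested markers did not pass the filter. Chil3 (0 to 0.209 CPM in sham) and Ngp (0 to 0.335 CPM) could pass it only with occluded libraries. The count over the tested markers is therefore a description. No marker in the list was at 0 in every library. Microglial markers summed to 246 to 275 CPM in sham, 206 to 369 CPM in tMCAO and 235 to 302 CPM in celastrol, and endothelial markers to 259 to 272, 294 to 356 and 278 to 447 CPM. Neuronal markers summed to 8635 to 9493 CPM in sham and 7587 to 8259 CPM in tMCAO, and celastrol replicate 2 had the highest sum of all, 10205 CPM. The 10 markers of hippocampus and thalamus summed to 285 to 428 CPM in sham, 398 to 911 CPM in tMCAO and 304 to 611 CPM in celastrol, and the striatal markers to 203 to 1169, 238 to 790 and 174 to 340 CPM. Choroid plexus markers ranged from 8.09 to 1897 CPM over the libraries (1897, 8.09 and 456 CPM in celastrol replicates 1 to 3). Erythrocyte markers summed to 168 to 303 CPM in sham, 108 to 582 CPM in tMCAO and 68.8 to 97.5 CPM in celastrol. All 5 were lower in celastrol than in tMCAO at an unadjusted p under 0.05 in edgeR, against 1.86% of all genes. None of the 5 passed an adjusted p of 0.05. The part of these cells in the levels of the 10 genes was not tested.

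The genes whose levels followed 4 of the members most closely over the 9 libraries are given by Pearson's r of log2 CPM, as a description with no p, since the libraries share their groups. For Atf3 they were Ehd1 (0.980), Zfp36l2 (0.980), Elovl1 (0.976), Lilrb4a (0.975) and Ppp1r15a (0.973). For Fosl1 they were Nifk (0.981), Rab20 (0.977), Dock1 (0.972), Sh3pxd2b (0.967) and Twf1 (0.965). For Jun they were Kcne4 (0.967), Serpinf2 (0.958), Igsf10 (0.956), Cd109 (0.955) and Bag3 (0.955). For Fos they were Chd1 (0.963), Capsl (0.953), Abce1 (0.952), Mrpl21 (0.943) and Elavl1 (0.942), none of which was in the lists of immediate early genes. Each was ranked among all 16982 genes tested.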

How the data were processed

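RNA from the hemisphere of 9 samples (3 sham, 3 tMCAO, 3 celastrol) was analysed from 1 table deposited by the authors, which gives each gene in each library an estimated count and an FPKM value. The submitters' processing notes name the mm10 build and, as tools, HISAT2 2.0.4, cutadapt 1.9, StringTie 1.3.4d, DESeq2 and edgeR; their settings and strand use are not stated. Per the labels' protocols, ribosomal RNA was depleted with Ribo-Zero Gold and the libraries were read as 2 × 150 bp. The deposited estimated counts are whole numbers, and in genes with 1 transcript and few counts at least 99.8% exceeded what the deposited FPKM implies by less than 1, so low counts can be overstated by up to 1.

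The counts were scaled by TMM and tested with edgeR 4.0.16 in R 4.3.3 (glmQLFit with its installed default, glmQLFTest, two-sided), with all 9 libraries in 1 fit and 1 mean per group. Genes reaching 0.5 FPKM in 3 or more libraries (16982) were tested, with a common dispersion of 0.0963, and p-values were Benjamini-Hochberg adjusted over all of them with a threshold of 0.05. Standard errors were derived from the F statistic (|log2 fold change| over its root) and are approximate. Log2 CPM used a prior count of 2. The code of the test was checked on simulated counts with the same dispersion for every gene, unlike these data. That check says nothing of how well differences are found here. Totals of 60392960 to 75158625 estimated counts set the precision of each level, and limits from a count of 0 cover counting error only. Nothing in the labels says whether libraries came from separate animals, so the spread that p-values measure here may be technical.

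The members and the gene lists were chosen with earlier results of these data known. All 10 members are named in every comparison. From each list the 2 genes with the smallest unadjusted p in each direction are named where none passes, and for Fos, Fosl1, Jun and Atf3 the 5 genes with the highest Pearson r. Alternatives were 3 other scalings, 2 other filters, DESeq2 1.42.0, edgeR's newer quasi-likelihood form, limma 3.58.1 on log2 of FPKM with a pseudocount of 0.5, 0.1 or 1, the compared groups alone, a replicate block, and each library left out. Coordinates of overlapping genes are those of the deposited table. Promoter windows are RefSeq sequences of GRCm38.p6.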

Additional observations from a re-analysis of the deposited data

How the results depend on the processing

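Counts of calls at an adjusted p under 0.05 depended most on the test and on single libraries. For tMCAO against sham the main count was 0 of the 10 genes and 0 over all genes. It was 5 members and 836 genes with DESeq2, 2 members and 30 genes with only the groups compared, 2 genes with edgeR's newer form and 2 with limma at a pseudocount of 0.1. Over the libraries left out in turn it ranged from 0 to 2 members and 0 to 91 genes. For celastrol against tMCAO it was 0 and 0, 18 genes with DESeq2, and 0 to 0 members and 0 to 2 genes with a library left out. For celastrol against sham, against 0 members and 1 gene, DESeq2 gave 3 members and 380 genes. There 3 genes passed with no filter, 2 with a minimum of 1 FPKM, 6 with the newer form, 3 with limma at 0.1 and 4 with only the groups compared, and leaving a library out gave 0 to 2 members and 0 to 46 genes. For both occluded groups against sham, against 0 members and 2 genes, DESeq2 gave 5 members and 797 genes, no filter 4 genes, the newer form 5 and limma at 0.1 29, and leaving a library out gave 0 to 3 members and 0 to 200 genes. All of these highest counts came without celastrol replicate 2, except the 2 genes for celastrol against tMCAO, which came without tMCAO replicate 2. At an unadjusted p under 0.05 the main test gave 2534, 698, 1445 and 2274 genes in the 4 comparisons.

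No pairing by replicate number was seen, though 3 libraries a group cannot exclude it. Deviations of same-numbered libraries correlated from -0.156 to 0.198 and those of differently numbered libraries from -0.264 to 0.227. Not every library correlated best with its own number. With the replicate block, 51 genes passed for tMCAO against sham, 22 for celastrol against sham and 64 for both occluded groups against sham, and 0 of the 10 members in any comparison. Under the block the log2 fold changes in celastrol against tMCAO were -0.53 for Fos and 0.0145 for Maff, and that of Jund in celastrol against sham was -0.0061.

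Other settings turned the direction only of genes near 0 or widely spread. In celastrol against tMCAO, limma with pseudocounts of 0.5, 0.1 and 1 gave Fos -0.61, -0.77 and -0.48 and Maff 0.21, 0.28 and 0.15, and no filter gave Maff 0.0007. In celastrol against sham, limma with 0.5 and 0.1 gave Fos -0.0675 and -0.20, and DESeq2 size factors and the DESeq2 test gave Jund -0.0041 and -0.0040. In both occluded groups against sham, Jund was 0.0237 with library totals and 0.0080 with limma at each pseudocount.

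Leaving out 1 library turned the direction of several genes. In tMCAO against sham the log2 fold change ran from -0.36 to 1.27 for Fos, -1.05 to 0.0624 for Fosb and -0.46 to 0.27 for Junb. In celastrol against tMCAO it ran from -1.12 to 1.02 for Fos, -0.35 to 2.23 for Fosb, -0.45 to 0.0538 for Jun, -0.17 to 0.84 for Junb, -0.0525 to 0.20 for Jund, -0.71 to 0.24 for Atf3, -0.47 to 0.42 for Maff and -0.30 to 0.44 for Ier3. In celastrol against sham it ran from -0.80 to 1.61 for Fos, -0.92 to 1.78 for Fosb, -0.56 to 0.84 for Fosl2, -0.40 to 0.74 for Junb and -0.17 to 0.0868 for Jund. In both occluded groups against sham it ran from -0.24 to 1.44 for Fos, -0.74 to 0.92 for Fosb, -0.60 to 0.30 for Fosl2 and -0.31 to 0.50 for Junb. Against sham, Atf3, Fosl1, Jun, Maff and Ier3 kept their direction under every alternative run, except that Fosl1 was not tested with a minimum of 1 FPKM, which it does not reach in 3 libraries. The cause of these changes was not tested. Each group has 3 libraries, 1 of the celastrol libraries stands apart, and genes with few counts, as Fosl1 in sham, are limited by depth.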
